A study of Mus musculus with 20 samples.

Results

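The cells described here are B cells that carried transcripts of marginal zone markers and lacked those of the follicular and B-1 markers. A barcode was kept if it had 1500 or more unique molecular identifiers (UMIs, so that each captured RNA molecule counts once), 200 or more genes and a mitochondrial share of 10% or less. Gated B cells had at least 3 UMIs of Cd79a and Cd79b together, none of Cd3d, Cd3e or Cd3g and fewer than 20 of Jchain. Among them, cells with no UMI of Cd5 or Fcer2a, at least 1 UMI of Cr2 and at least 1 UMI of Cd1d1 or Cd9 were selected on these UMI counts alone. This rule found 312 of 34057 gated B cells (0.916%) among 97181 kept barcodes. Of the 312 cells, 259 came from spleens and 53 from lymph nodes, and 4 of 20 libraries held none. They are called Cr2+ Cd5- Fcer2a- cells here, a short name that stands for the whole rule, with Cd1d1 or Cd9 included. It does not cover gated cells with Cr2 alone, which the rule left out. The name was chosen because most of them outside Eµ-PRMT5 spleen 1 carried the V gene that led the Cd5-positive cells of their library. Of 18 marginal zone genes tested outside the rule, 0 passed the edgeR test against other gated B cells. Over all genes 23 of 8672 (0.265%) passed, so a count of 0 does not set the marginal zone genes apart. More of these genes were nevertheless higher than lower, as given below.

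Live cells were sequenced without selection from 13 mice labelled C57BL/6N, as 20 single-cell RNA libraries. Spleens came from 5 Eµ-PRMT5 mice, 4 Eµ-TCL1 mice and 4 Eµ-PRMT5/TCL1 mice, and lymph nodes were added from 3 of the Eµ-TCL1 and from each of the 4 Eµ-PRMT5/TCL1 mice, so that 7 mice gave both tissues. Eµ-PRMT5 mice carry human PRMT5, an arginine methyltransferase, Eµ-TCL1 mice carry human TCL1, an oncogene used to model chronic lymphocytic leukaemia (CLL), and Eµ-PRMT5/TCL1 mice carry both. Each transgene is driven in B cells by the heavy chain Eµ enhancer with a VH promoter, the nodes were sub-mandibular, tissue was taken once mice met removal criteria, and no library from mice without a transgene was analysed here. Libraries held 9348094 to 72440894 UMIs in total and 784 to 8631 kept barcodes.

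Marginal zone B cells sit at the border of the splenic white pulp, depend on Notch2 signals from Dll1, and are held in place by sphingosine-1-phosphate receptors and integrins. They carry the complement receptor Cr2 (CD21) and the lipid-presenting molecule Cd1d at high levels, hold much IgM and little IgD, and answer blood-borne antigen without T cell help. Follicular B cells carry Fcer2a (CD23) and IgD, and B-1 cells and the leukaemic cells of Eµ-TCL1 mice carry Cd5. Cd9, a tetraspanin, is found on marginal zone, B-1 and plasma cells.

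The rule rested mainly on single molecules. Of the 312 cells, 277 had 1 Cr2 UMI and 35 had 2 or more. Cd9 was seen in 280 and Cd1d1 in 75, with both in 43, so that 237 cells entered through Cd9 alone. Just inside the rule, 78 cells held exactly 1 Cr2 UMI and 1 UMI of a second marker. Just outside it, 224 cells had Cr2 without Cd1d1 or Cd9 (141 of them in Eµ-PRMT5 spleen 1), 79 were kept out by 1 Cd5 UMI and 23 by 1 Fcer2a UMI. The median depth was 7806 UMIs in the selected cells, 5894 in all gated B cells and 4373.5 in those with Cr2 alone. In T cells, gated for no UMI of Cd79a or Cd79b, 1 of 32341 cells (0.00309%) held both Cr2 and 1 of the other markers, at a median of 4303 UMIs. That gate leaves out T cells with stray Cd79a or Cd79b RNA. The share can therefore be low by selection and gives no background for the rule.

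Eµ-PRMT5 spleen 1 stood apart from the other libraries in the markers themselves. There, 21 of 49 cells had 2 or more Cr2 UMIs, up to 7, whereas in all other libraries together 14 of 263 did, with at most 3. Cr2 was detected in 22.2% of its gated B cells and in no more than 10.4% of those of any other library. Cd9 showed the opposite pattern, with 10.2% of gated B cells in Eµ-PRMT5 spleen 1 and 54.1% to 93.9% elsewhere. Values without this library are given below where it carried much of a result.

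The immunoglobulin heavy chain V gene (Ighv) carried by a cell was not used by the rule and is shared by the cells of an expanded population. For each library the leading Ighv gene of the Cd5-positive B cells, the cells that carry the CLL-like marker, was taken as the reference. A cell was given a V gene where 1 gene held at least 3 V gene UMIs and at least 75% of them. The ends of 6 leading genes, the last 60 bases of each V segment, are given next because reads can be split between V genes that are alike over such a stretch. All 6 lie on chromosome 12, minus strand (GRCm38, GENCODE vM21). Capitals mark the cysteine codon that follows a pair of tyrosine codons near the end of the V segment. No such codon was matched in Ighv8-2.
Ighv1-47: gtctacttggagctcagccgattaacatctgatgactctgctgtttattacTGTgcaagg
Ighv1-52: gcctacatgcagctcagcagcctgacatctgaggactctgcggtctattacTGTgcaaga
Ighv1-55: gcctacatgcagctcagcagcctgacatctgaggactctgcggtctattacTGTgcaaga
Ighv6-6: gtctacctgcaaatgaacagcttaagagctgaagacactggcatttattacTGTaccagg
Ighv8-2: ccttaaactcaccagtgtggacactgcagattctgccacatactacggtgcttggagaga
Ighv12-3: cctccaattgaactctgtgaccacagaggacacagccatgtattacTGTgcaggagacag
The genes lie at chr12:114991108-114991580 (Ighv1-47), chr12:115145487-115145919 (Ighv1-52), chr12:115208095-115208591 (Ighv1-55), chr12:114434788-114435244 (Ighv6-6), chr12:114462291-114462730 (Ighv8-2) and chr12:114366521-114366954 (Ighv12-3). Ighv12-3 encodes VH12, known from B-1 cells that bind phosphatidylcholine. Ighv1-52 and Ighv1-55 are identical over the stretch shown, 6 other Ighv genes of 113 searched hold the same 60 bases as each of them, and 32 lie within 3 mismatches, so that calls of these 2 genes are uncertain.

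In 13 of the 15 libraries with a called cell, most Cr2+ Cd5- Fcer2a- cells carried the V gene that led the Cd5-positive cells of the same library. Eµ-PRMT5 spleen 1 and Eµ-TCL1 spleen 3 were the exceptions. The 15 libraries are not independent. Eµ-TCL1 nodes 2 and 3 and Eµ-PRMT5/TCL1 nodes 1 and 2 share the mouse and the leading gene with a spleen among them. In Eµ-TCL1 spleen 2, 55 of 55 called cells carried Ighv12-3, as did 99.7% of the other gated B cells. In Eµ-PRMT5/TCL1 spleen 4, 29 of 29 carried Ighv1-52, against 91.0% of the others. In Eµ-PRMT5 spleen 5, 27 of 28 carried Ighv1-55 (96.4%), against 75.9% of the others. Cells that passed a gate requiring no Cd5 transcript thus mostly had the V gene of cells with one, which was also the V gene of most gated B cells in these 3 spleens.

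The other libraries had fewer called cells, and their shares were more varied. The leading gene was found in 8 of 15 called cells of Eµ-PRMT5 spleen 3 (Ighv1-47, 53.3%, against 15.5% of the other gated B cells, where another Ighv gene led with 461 of 1135 cells), in 10 of 12 of Eµ-PRMT5/TCL1 spleen 1 (Ighv8-2, 83.3%), in 1 of 1 of Eµ-PRMT5/TCL1 spleen 3 (Ighv1-9) and in 7 of 7 of Eµ-TCL1 spleen 1 (Ighv1-55). It was found in 4 of 4 in Eµ-PRMT5 spleen 2 (Ighv7-3) and 4 of 4 in Eµ-TCL1 spleen 4 (Ighv12-3), but in 2 of 6 in Eµ-TCL1 spleen 3 (Ighv10-3, 33.3%). In lymph nodes it was found in 14 of 14 and 7 of 8 cells of Eµ-TCL1 nodes 2 and 3 (both Ighv12-3), and in 3 of 3 and 11 of 11 of Eµ-PRMT5/TCL1 nodes 1 (Ighv1-52) and 2 (Ighv8-2). Over all libraries but Eµ-PRMT5 spleen 1, 182 of 197 called cells carried the leading Ighv gene (92.4%), with 55 of the 197 from 1 spleen. By library, the share ran from 33.3% to 100% (median 100%) in the 14 libraries with a called cell. It ran from 15.5% to 99.7% (median 93.2%) in their other gated B cells. A node and a spleen of the same mouse are counted separately in these values. For the light chain 164 of 172 carried the leading V gene (95.3%). It was 89.2% of Ighv calls in cells with Cd1d1 (33 of 37) and 93.1% in those with Cd9 alone (149 of 160). A shared V gene is not shown to be a shared clone, since the junction is not read by a 3′ library.

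In Eµ-PRMT5 spleen 1 the selected cells were diverse. None of 28 called cells carried Ighv6-6, and they held 23 different Ighv genes with at most 2 cells each. The light chains were as varied, with 27 genes among 39 called cells and 0 with the leading gene. The reference is weak in this library, as Ighv6-6 led only 3 of 10 called Cd5-positive cells. Among its other gated B cells 122 of 872 called cells carried Ighv6-6. Its follicular-like cells, gated cells with Fcer2a and without Cd5, held 75 Ighv genes among 323 called cells. Its cells with Cr2 alone held 33 Ighv genes among 66 called cells, with at most 5 cells each. Diverse V genes were thus not particular to the selected cells of this library.

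Against the other gated B cells of the same spleen, the leading V gene was more frequent on average without passing a test. For Ighv the mean share was 74.1% in Cr2+ Cd5- Fcer2a- cells and 70.1% in the others over the 4 spleens with at least 20 called cells in each class, a difference of 3.96 percentage points (higher in 3 of 4, exact sign-change permutation p = 0.625, where 0.125 is the smallest p that 4 pairs allow). The direction rested on 1 library, as this difference was -1.56 points without Eµ-PRMT5 spleen 5 and 9.95 points without Eµ-PRMT5 spleen 1. With at least 3 called cells, a limit chosen after seeing the data, the difference was 8.45 points over 10 spleens (higher in 8, exact permutation p = 0.176). For the light chain the difference was 14.2 points over 5 spleens with at least 20 called cells (higher in 4, exact permutation p = 0.312, with 0.0625 the smallest that 5 pairs allow) and 14.1 points over 9 spleens with at least 3 (higher in 8, exact permutation p = 0.0664). The other gated B cells include the Cd5-positive cells from which the leading gene was chosen. Without those, a choice made after seeing the data, the Ighv difference was 5.43 points over 4 spleens (exact permutation p = 0.625) and 11.1 over 10 (p = 0.135, exact), and the light chain difference 16.1 over 5 (p = 0.312, exact) and 17.03 over 9 (exact permutation p = 0.0508). Against follicular-like cells, gated cells with Fcer2a and without Cd5, both classes reached 20 called cells in 2 spleens, where the mean shares were 48.2% and 2.96% (higher in 1 of 2, exact permutation p = 1, with 0.5 the smallest p that 2 pairs allow). In Eµ-PRMT5 spleen 5 the share was 96.4% of 28 Cr2+ Cd5- Fcer2a- cells against 5.0% of 20 follicular-like cells, and in Eµ-PRMT5 spleen 1 it was 0% of 28 against 0.929% of 323. With at least 3 called cells the difference was 33.4 points over 6 spleens (higher in 5, exact permutation p = 0.0625). The gap was not wide in each library, as 4 of 5 follicular-like cells of Eµ-PRMT5/TCL1 spleen 1 (80%) and 17 of 17 of Eµ-PRMT5/TCL1 lymph node 2 carried the leading Ighv gene.

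The same markers were next counted in the Cd5-positive cells, since a cell with a missed Cd5 transcript would fall under the rule. Among Cd5-positive, Fcer2a-negative gated cells, Cr2 with Cd1d1 or Cd9 was present in 13.3% of 90 cells in Eµ-PRMT5 spleen 3 and in 10.8% of 83 in spleen 5. Among cells with neither Cd5 nor Fcer2a it was present in 1.85% of 1566 and 8.02% of 349. In Eµ-PRMT5 spleen 1 it was present in 4.29% of 1141 cells with neither, and its 16 Cd5-positive cells were too few to compare. Shares in Cd5-positive and Cd5-negative cells were 1.00% of 400 and 1.21% of 5130 in Eµ-TCL1 spleen 2. They were 2.14% of 1167 and 0.919% of 4026 in Eµ-PRMT5/TCL1 spleen 1, and 2.16% of 693 and 1.58% of 1896 in Eµ-PRMT5/TCL1 spleen 4. These spleens are those with at least 20 selected cells, and the others ran both ways. Shares were 1.35% of 518 and 0.103% of 969 in Eµ-PRMT5/TCL1 spleen 3, and 0% of 176 and 0.488% of 1229 in Eµ-TCL1 spleen 3. Depth was not matched between the classes, and its part was not tested.

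The frequency of Cr2+ Cd5- Fcer2a- cells was then compared between genotypes. In Eµ-PRMT5 spleens 1 to 5 they made up 2.62%, 1.76%, 1.66%, 0% and 6.06% of gated B cells. In Eµ-TCL1 spleens 1 to 4 they made up 0.884%, 1.12%, 0.425% and 0.152%, and in Eµ-PRMT5/TCL1 spleens 1 to 4 they made up 0.710%, 0%, 0.0670% and 1.16%. Eµ-PRMT5 spleens 1, 2, 3 and 5 were thus above each spleen of the other genotypes as a share of gated B cells, and Eµ-PRMT5 spleen 4 held none. As a share of all kept barcodes that order did not hold, since Eµ-PRMT5 spleens 2, 3 and 5 were at 0.493%, 0.559% and 0.468%, below Eµ-TCL1 spleen 2 (0.898%) and Eµ-PRMT5/TCL1 spleen 1 (0.620%). The empty libraries allow shares of up to 0.340% (Eµ-PRMT5 spleen 4) and 0.993% (Eµ-PRMT5/TCL1 spleen 2). In Eµ-TCL1 nodes 1 to 3 the shares were 0% (up to 1.42% is allowed by the count), 1.39% and 0.417%. In Eµ-PRMT5/TCL1 nodes 1 to 4 they were 0.685%, 0.910%, 0.253% and 0% (up to 0.180%).

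None of these differences between genotypes passed a permutation test. At full depth Eµ-PRMT5 spleens held 2.42% ± 2.25 (SD, n = 5) and Eµ-TCL1 spleens 0.646% ± 0.438 (n = 4), a difference of 1.78 points (exact two-sided permutation p = 0.111, 0.278 after Benjamini-Hochberg adjustment over 5 comparisons). Over all kept barcodes that difference was 0.212 points (exact permutation p = 0.460). Eµ-PRMT5/TCL1 spleens held 0.483% ± 0.551 (n = 4), 1.94 points below Eµ-PRMT5 spleens (difference of -1.94, exact permutation p = 0.111, adjusted 0.278). As a single UMI decides the gate and depth differs between libraries, every cell was also thinned to 1500 UMIs, after which 45 cells met the rule. Of these 45, 35 were among the 312, and 10 entered because the Fcer2a (2 cells) or Cd5 UMIs (8 cells) that had kept them out were lost. The thinned share was 0.206% ± 0.348 in Eµ-PRMT5 spleens, 0.0507% ± 0.0459 with TCL1 alone and 0.101% ± 0.119 with both transgenes. Their differences were 0.156 points between Eµ-PRMT5 and Eµ-TCL1 (exact permutation p = 0.556, adjusted 0.926), 0.0503 between Eµ-PRMT5/TCL1 and Eµ-TCL1 (p = 0.457) and -0.105 between Eµ-PRMT5/TCL1 and Eµ-PRMT5 (p = 0.873), each by the exact test.

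After thinning, 1 library carried most of the Eµ-PRMT5 value. In Eµ-PRMT5 spleen 1, 15 cells met the rule (0.803%), 13 of them from its 49 and 2 with Fcer2a at full depth, whereas in spleen 5, the library with the highest full-depth share, none of the 28 did. Without spleen 1 the thinned difference between Eµ-PRMT5 and Eµ-TCL1 was 0.00657 points, and that between Eµ-PRMT5/TCL1 and Eµ-PRMT5 turned to 0.0437 points. At full depth the same differences without spleen 1 were 1.73 (exact permutation p = 0.200) and -1.89 points (exact permutation p = 0.200). The median depth of gated B cells was 4065 UMIs in spleen 1 and 7012 in spleen 5.

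In lymph nodes the thinned shares were 0.0350% ± 0.0700 (n = 4) in Eµ-PRMT5/TCL1 and 0.0309% ± 0.0535 (n = 3) in Eµ-TCL1 (difference 0.00411 points, exact permutation p = 1, with 0.0571 the smallest p possible). In the 7 mice with both tissues the node held 0.0333% and the spleen 0.0867%, a difference of -0.0534 points, lower in the node in 4 of 7 (exact permutation p = 0.25). At full depth that difference was -0.0624 points (exact p = 0.719).

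**Figure D1:**
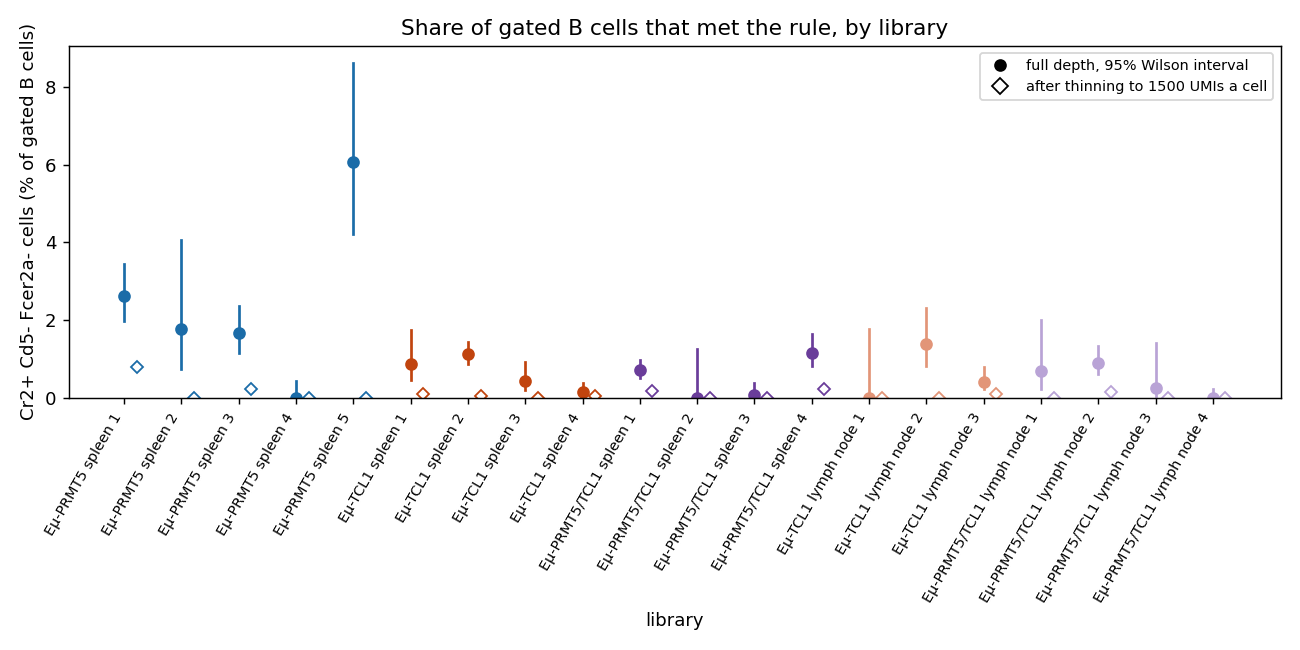
Share of gated B cells that met the whole rule (Cr2+ Cd5- Fcer2a- cells, with Cd1d1 or Cd9) in each of the 20 libraries (vertical axis, percent). Filled points are at full depth with 95% Wilson intervals, and open diamonds are after thinning each cell to 1500 UMIs. Full-depth shares run from 0% to 6.06% and thinned shares from 0% to 0.803%, the latter in Eµ-PRMT5 spleen 1.

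Genes outside the rule were first read within Eµ-PRMT5 spleen 1, the library with diverse V genes. UMIs were summed over its 49 Cr2+ Cd5- Fcer2a- cells (288878 UMIs) and its 710 follicular-like cells (3548098 UMIs) and scaled to a common total of 1000000 UMIs (CPM), with exact Poisson intervals, which cover counting error only. With 1 library no test between the classes was made. Hes1, a repressor induced by Notch, stood at 239 CPM (186 to 302) against 51.9 (44.6 to 59.9). Dtx1, a Notch target, stood at 125 against 64.8 CPM, and Nrarp, a feedback inhibitor of Notch, at 17.3 against 5.92 CPM. In the 141 cells of this library with Cr2 alone, just outside the rule, Dtx1 stood at 125, Hes1 at 63.8 and Nrarp at 9.93 CPM. The Dtx1 level was thus not particular to the selected cells. Of 15 Notch pathway genes with at least 20 UMIs in both classes together, Hes1 and Nrarp were at least 2-fold higher. Mfng, a fringe glycosyltransferase, was at least 2-fold lower, on 4 UMIs in the selected cells. Nrarp rested on 5 UMIs there, and its ratio interval, from 0.862 to 7.97, included no difference.

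Of the 20 marginal zone genes outside the rule, 18 were higher in these cells than in follicular-like cells of the same spleen. The same held for 5351 of all 12737 genes with UMIs. Among the 13 with at least 20 UMIs in both classes together, Cd36, Fcrl5, Marcks, Myof, Nebl and Pdia4 were at least 2-fold higher. Lmo2 was at least 2-fold lower, and the median ratio was 1.95. Over all 8520 genes with as many UMIs, 4.44% were at least 2-fold higher and 9.38% at least 2-fold lower, with a median ratio of 0.996. Cd36 rested on 4 UMIs in the selected cells, and its ratio interval, from 0.747 to 9.52, included no difference. Myof, a membrane repair protein, stood at 31.2 (14.2 to 59.1) against 6.20 CPM (3.89 to 9.39). Fcrl5, an Fc receptor-like protein of innate-like B cells, stood at 45.0 (23.96 to 77.0) against 10.99 CPM (7.82 to 15.03), and Plac8 at 907 (800.5 to 1024) against 464.5 CPM (442.3 to 487.5). S1pr3, the sphingosine-1-phosphate receptor of the marginal zone, stood at 13.9 against 3.1 CPM on 4 UMIs. In the 141 cells with Cr2 alone, Myof was at 9.93, Fcrl5 at 21.3, Plac8 at 703 and S1pr3 at 5.67 CPM. Each of these lay between the selected and the follicular-like cells. Marcks was at 44.0 CPM there and at 48.5 CPM in the selected cells.

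Other genes of this library followed the surface markers less closely. Ighd, the IgD constant region, was at 128 (90.2 to 176.5) against 212 CPM (197 to 227), while Ighm was at 588.5 (503 to 684) against 529 CPM (505 to 553.5). Ccr7, the receptor for entry into T cell zones, was at 876 against 1506 CPM, and Egr1, an immediate early gene, at 65.8 against 669 CPM. None of the 12 follicular genes outside the rule was 2-fold apart, with Satb1, a chromatin organiser, at 239 against 318 CPM. Mki67 and Top2a, genes of dividing cells, had 0 UMIs in the 49 cells.

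B-1 and CLL-like genes did not run one way in this library. Of 14, 8 were higher in the selected than in the follicular-like cells, as were 5351 of all 12737 genes with UMIs. Of the 7 with at least 20 UMIs in both classes together, Plscr1 and S100a6 were at least 2-fold higher. Anxa2 and Lgals1 were at least 2-fold lower, and the median ratio was 1.76. Anxa2 and Lgals1 rested on 2 UMIs each in the selected cells. Their ratio intervals, 0.037 to 1.16 and 0.0537 to 1.725, included no difference. S100a6 stood at 138.5 against 59.5 CPM. Bhlhe41, a transcription factor of B-1 cells, had 0 UMIs in the 49 cells and 7 in the 710 follicular-like cells.

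**Figure D2:**
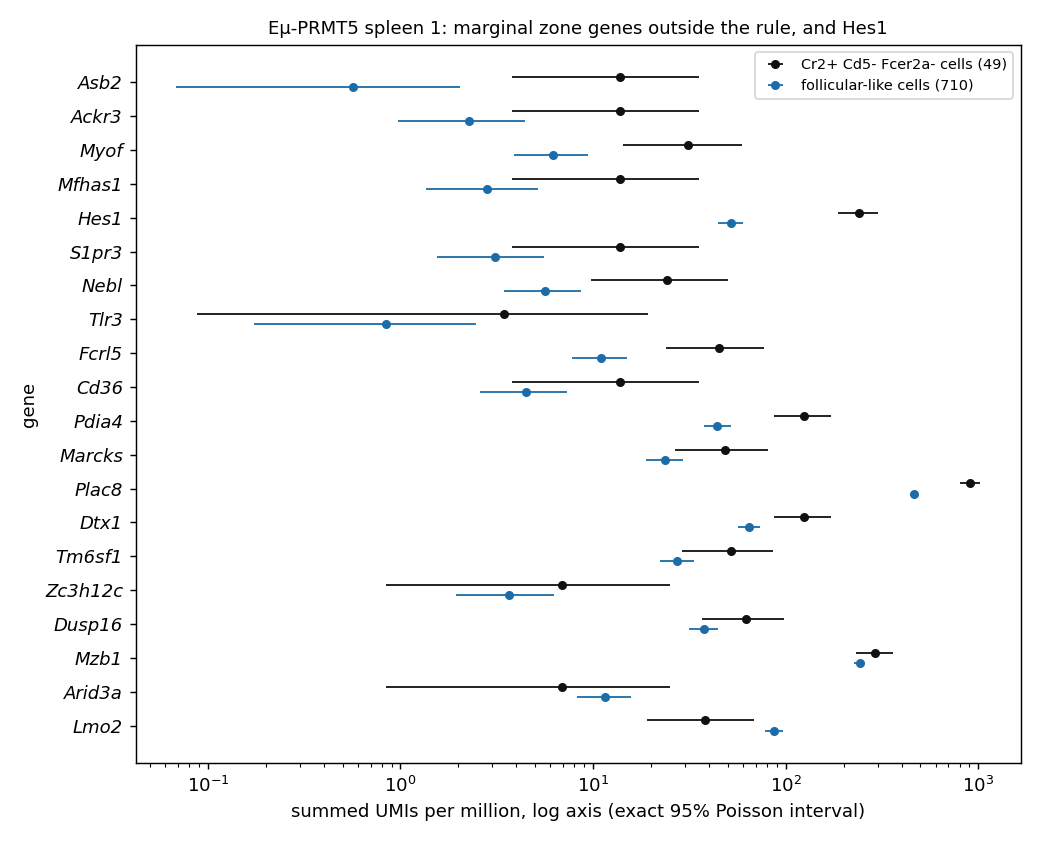
CPM (summed UMIs scaled to a common total, horizontal log axis) in Eµ-PRMT5 spleen 1 for Hes1 and the marginal zone genes seen in both classes, in 49 Cr2+ Cd5- Fcer2a- cells (black) and 710 follicular-like cells (blue), with exact 95% Poisson intervals. Hes1 lies at 239 against 51.9 and Lmo2 at 38.1 against 87.1.

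Across the 7 libraries with at least 20 Cr2+ Cd5- Fcer2a- cells, these cells were lowest in Eµ-PRMT5 spleen 1 for 8 of 14 B-1 and CLL-like genes, and below the median of the other 6 libraries for 13 of 14. Over the 8672 genes tested below, spleen 1 was lowest for 13.4%, highest for 19.5% and below that median for 46.4%. S100a6 was not among the 8, at 138.5 CPM in Eµ-PRMT5 spleen 1 and 94.4 CPM in Eµ-PRMT5/TCL1 spleen 4. For the 20 marginal zone genes outside the rule, Eµ-PRMT5 spleen 1 was lowest for 6 (among them Mzb1, Fcrl5 and Pdia4), highest for 4 (Asb2, Tm6sf1, Dusp16 and Tlr3) and below the median of the others for 11. Zbtb32, a transcription factor of B-1 and CLL-like cells, stood at 13.8 CPM in the Cr2+ Cd5- Fcer2a- cells of Eµ-PRMT5 spleen 1 and at 128 and 219 CPM in those of Eµ-PRMT5 spleens 3 and 5. It stood at 378 CPM in Eµ-TCL1 spleen 2, at 255 and 488 CPM in Eµ-PRMT5/TCL1 spleens 1 and 4 and at 136 CPM in Eµ-PRMT5/TCL1 lymph node 2. In the same order Bhlhe41 was at 0, 19.4, 94.8, 93.0, 111, 106 and 30.8 CPM. Eµ-PRMT5 spleen 1 was thus lowest for both genes. Its follicular-like cells had Zbtb32 at 2.3 and Bhlhe41 at 1.97 CPM. Its gated cells with none of Cd5, Fcer2a and Cr2 had 36.5 and 6.49 CPM. Cd5 was detected in 0.963% of its gated B cells and in 5.56% to 29.0% of those of the other 6 libraries. The other gated B cells were not ranked over libraries, so this order was not shown to be particular to the selected cells.

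Of the 12 follicular genes outside the rule, Eµ-PRMT5 spleen 1 was highest for 7 and above the median of the others for 11. Satb1 was at 239 CPM in Eµ-PRMT5 spleen 1, 15.5 and 3.27 CPM in Eµ-PRMT5 spleens 3 and 5, and 0 in the other 4 libraries. In Eµ-PRMT5 spleen 1, Satb1 was also at 318 CPM in follicular-like cells. It was at 183 CPM there in gated cells with none of Cd5, Fcer2a and Cr2. Cr2 itself, which the rule used, was at 332 CPM in Eµ-PRMT5 spleen 1 and at 98.1 to 160 CPM in the others. The levels of these 7 libraries were not tested against each other here.

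Against all other gated B cells, 23 of 8672 genes differed (0.265%) in 6 spleens, by edgeR on UMIs summed per library and class with the library as a block. These spleens were Eµ-PRMT5 1, 3 and 5, Eµ-TCL1 2 and Eµ-PRMT5/TCL1 1 and 4, with 235 Cr2+ Cd5- Fcer2a- cells and 17183 others. Of the 23 genes, 2 were higher (0.0231% of genes tested) and 21 lower (0.242%), and 699 (8.06%, of which 3.23% higher and 4.83% lower) had an unadjusted p under 0.05. A same direction in all 6 spleens was seen for 5.34% of genes, and DESeq2 called 18 genes (0.208%). When an equal number of other cells matched on UMIs was taken, 1 of 4161 genes was called (Gm42418, log2 difference -0.43, edgeR adjusted p = 0.0191), and Cfp, Anxa2, Emp3 and Tuba1a were no longer called, with Emp3 at -0.62 and Tuba1a at -0.61. Hes1 and the neutrophil genes named below did not pass the filter on low counts in that comparison and have no value there.

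The higher genes were Hes1 and Cfp. Hes1 was at 239, 50.5, 52.3, 10.95, 13.9 and 15.7 CPM in the Cr2+ Cd5- Fcer2a- cells of the 6 spleens in that order, and at 37.0, 9.51, 20.2, 8.07, 13.3 and 26.6 CPM in the others. The difference was wide in the 3 Eµ-PRMT5 spleens and small or reversed in the other 3 (log2 difference 1.44 ± 0.32 SE, edgeR adjusted p = 0.0472, higher in 5 of 6). Without Eµ-PRMT5 spleen 1 it was 0.84 with an adjusted p of 0.528 by edgeR, and DESeq2 did not call it (adjusted p = 0.552). Leaving out Eµ-PRMT5 spleen 3, Eµ-PRMT5 spleen 5 or Eµ-TCL1 spleen 2 ended the Hes1 call as well, with log2 differences of 1.32, 1.43 and 1.58 (edgeR adjusted p 0.0514 to 0.106).

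Cfp encodes properdin, which stabilises the alternative complement convertase. It was at 31.2, 46.6, 134, 104, 202 and 291 CPM against 16.4, 12.01, 104, 54.1, 53.0 and 230 CPM (log2 difference 0.94 ± 0.19 SE, edgeR adjusted p = 0.0195, higher in 6 of 6). A Cfp UMI was found in 41.7% of the selected cells and 21.8% of the others. The call was lost without Eµ-TCL1 spleen 2 (log2 difference 0.99, edgeR adjusted p = 0.0774) or Eµ-PRMT5/TCL1 spleen 1 (log2 difference 0.67, edgeR adjusted p = 0.186). It was also lost with cells matched on UMIs (log2 difference 0.78, edgeR adjusted p = 0.419).

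Among the lower genes were Anxa2, Emp3 and Tuba1a. Anxa2, a calcium-dependent membrane-binding annexin, was at 6.92, 23.3, 13.1, 314, 99.8 and 59.0 CPM against 40.0, 139.5, 51.0, 473.5, 157 and 104 CPM (log2 difference -1.03 ± 0.18 SE, edgeR adjusted p = 0.00473, lower in 6 of 6). Its call held when any 1 of the 6 libraries was left out (edgeR adjusted p 0.00968 to 0.0372) and was lost with cells matched on UMIs (log2 difference -0.77, adjusted p = 0.947). Emp3, a tetraspan membrane protein, fell in 6 of 6 spleens (log2 difference -0.80 ± 0.16 SE, edgeR adjusted p = 0.0195). Without Eµ-PRMT5 spleen 1 it was at -0.69 (edgeR adjusted p = 0.128), and without Eµ-PRMT5/TCL1 spleen 1 at -0.89 (0.0513). Tuba1a, an alpha tubulin, differed by -0.74 ± 0.16 (edgeR adjusted p = 0.0328), a call lost in 5 of 6 fits that left out a library. In those 6 fits its log2 difference ran from -0.86 to -0.57.

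The largest decreases were in genes of other blood cells. Lyz2, Camp, Ngp, Lcn2, S100a8 and S100a9, products of neutrophils and their precursors, were lower by edgeR with log2 differences of -5.90, -5.58, -5.40, -4.34, -2.87 and -2.28. S100a9 kept its call only without Eµ-PRMT5 spleen 1 (-5.44) or spleen 5 (-2.33) among the 6 fits that left out a library, and was at -1.12 without Eµ-PRMT5 spleen 3 (edgeR adjusted p = 0.158). S100a8 kept its call in these 6 fits, at -4.80 without Eµ-PRMT5 spleen 1 and -2.02 without spleen 3. Within the selected cells, 1 cell held 50 of 61 S100a8 UMIs, and 1 cell 129 of 138 S100a9 UMIs. Hbb-bs, a haemoglobin chain, differed by -3.01 and the chemokine Ccl5 by -2.70. In the other gated B cells at least 99.2% of the UMIs of the 6 neutrophil genes, 89.0% of Hbb-bs and 71.0% of Ccl5 lay in 172 cells, 1% of the class. The share of cells with a UMI did not fall to the same degree. It was 2.13% of the selected cells and 1.14% of the others for Ngp, 3.40% and 1.51% for S100a8, 0.426% and 0.995% for Lyz2, 0.426% and 0.518% for Lcn2, and 3.83% and 4.41% for Ccl5. Ighg3, the IgG3 constant region, differed by -3.61 (edgeR adjusted p = 0.000455). In the other gated B cells 70.3% of its UMIs lay in the same number of cells, and 1 cell held 2014 of 3604. Ighg3 lost its call without Eµ-PRMT5 spleen 1 (edgeR log2 difference -1.60, adjusted p = 0.311).

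Markers of other cell types were summed in the same classes. In the 7 libraries with at least 20 of them, 10 myeloid markers summed to 45.8 to 644 CPM against 92.3 to 2598 CPM in the other gated B cells, with Csf1r, Elane and Ltf at 0 UMIs. For 9 T and NK cell markers the sums were 13.9 to 148 against 15.4 to 83.0 CPM, with Trbc1, Cd4, Cd8a and Ncr1 at 0. Dendritic cell markers (5 genes) summed to 0 to 51.9 CPM (median 18.5) against 1.91 to 66.4 CPM (median 8.24), with Xcr1 at 0. Erythroid markers (6 genes) summed to 0 to 23.3 against 1.57 to 229 CPM, with Hba-a2 and Alas2 among those at 0, and platelet markers (5 genes) to 0 to 3.93 against 0.120 to 1.55 CPM. All 6 stromal and follicular dendritic cell markers in the files were at 0. Doublet scores marked 2.88% of the selected cells and 2.76% of all gated B cells.

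**Figure D3:**
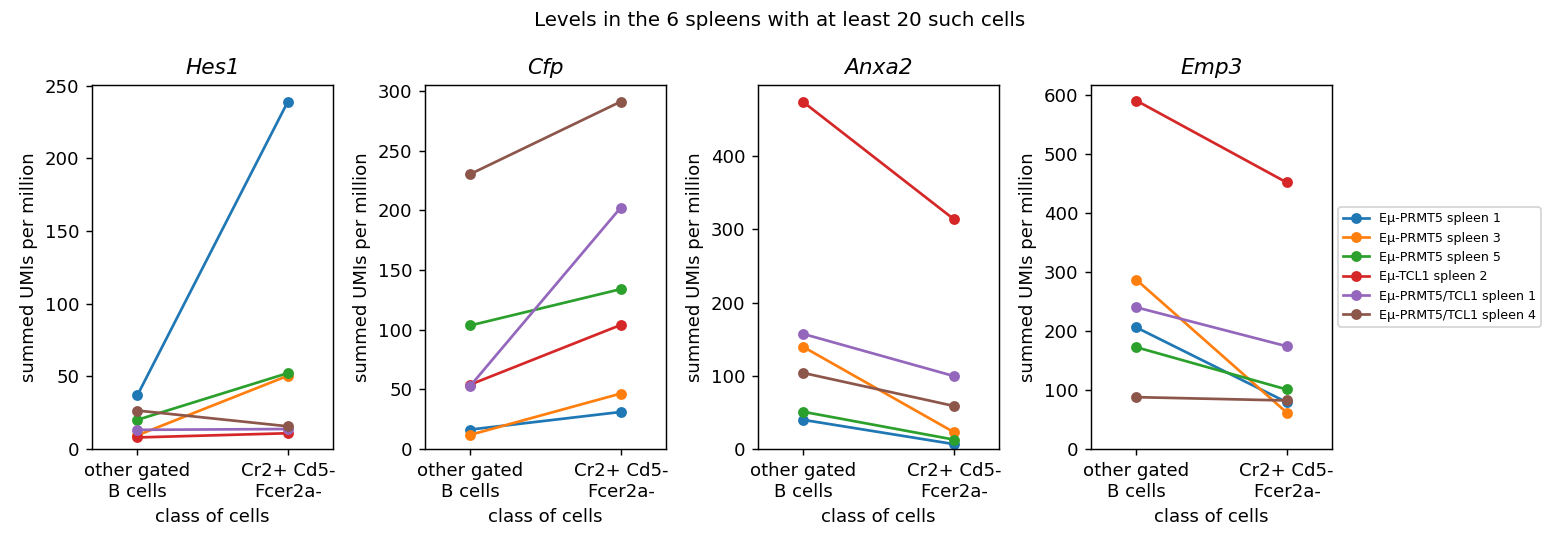
CPM of Hes1, Cfp, Anxa2 and Emp3 (vertical axes, each from 0) in the other gated B cells and in Cr2+ Cd5- Fcer2a- cells, with 1 line for each of 6 spleens. Cfp is higher and Anxa2 and Emp3 are lower in 6 of 6, and Hes1 is higher in 5 of 6 with the widest gap in Eµ-PRMT5 spleen 1.

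In Eµ-PRMT5/TCL1 lymph node 2, the node library with at least 20 such cells and not part of the test, Hes1 was at 12.3 against 5.75 CPM, Cfp at 136 against 74.1 CPM, Anxa2 at 111 against 133 CPM and Emp3 at 55.5 against 139 CPM. These 4 genes pointed as in the spleens, and Tuba1a, at 67.9 against 43.9 CPM, did not. This node comes from the same mouse as the tested Eµ-PRMT5/TCL1 spleen that shares its leading Ighv gene. It is therefore not an independent check of these directions. The levels of this node rest on 26 such cells, and their directions were not tested.

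By gene groups, 15 of 18 marginal zone genes tested outside the rule had a positive difference from other gated B cells, as did 46.9% of all genes. Of the 18, 0 passed the edgeR test, and 3 higher and 1 lower had an unadjusted p under 0.05 (median log2 difference 0.17, against -0.02 over all genes). Without Eµ-PRMT5 spleen 1, 11 of 17 had a positive difference (median 0.05, against 0.00 over all genes) and 0 passed. Myof had the lowest p among the 18 (1.44 ± 0.45, edgeR adjusted p = 0.274). Of 13 Notch pathway genes, Hes1 passed (median 0.18). Of 11 follicular genes 0 passed, 10 had a negative difference and 4 an unadjusted p under 0.05 (median -0.30), among them Cd55, a complement regulator, at -0.57 (adjusted p = 0.118). Of 13 B-1 and CLL-like genes, Anxa2 passed (median -0.04), and without Eµ-PRMT5 spleen 1 S100a6 did as well (-0.78, edgeR adjusted p = 0.000372).

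Cell cycle genes pointed the same way. Of 7 tested, 7 had a positive difference, 0 passed by edgeR and 5 had an unadjusted p under 0.05 (median 0.81), with Top2a at 0.80 ± 0.21 (adjusted p = 0.135) and Mki67 at 0.82 ± 0.21 (adjusted p = 0.139). Without Eµ-PRMT5 spleen 1, 8 of 8 had a positive difference (median 0.91) and Top2a passed (0.92 ± 0.18, edgeR adjusted p = 0.0220). Mki67 was at 0, 7.76, 39.2, 14.6, 61.0 and 165 CPM in the selected cells and at 3.95, 2.97, 19.2, 6.20, 37.8 and 91.6 CPM in the others of the same 6 spleens. The selected cells also held more UMIs a cell in each of these spleens, for example a median of 7904.5 against 5020 in all gated B cells of Eµ-PRMT5/TCL1 spleen 4. The part of depth in this difference was not tested beyond the matched comparison. Of 15 homing receptors 0 passed (median -0.15), of 16 innate and coreceptor genes 0 (median -0.02), and of 10 immediate early genes 0 (median -0.24). Of the germinal centre, transitional and plasma cell lists 1, 2 and 5 genes could be tested, and 0 passed.

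Against follicular-like cells of the same spleen, 0 of 4364 genes passed the edgeR test (0% called) in Eµ-PRMT5 spleens 1, 3 and 5. An unadjusted p under 0.05 was seen for 361 (8.27%). Leaving out spleen 1, 3 or 5 gave 4, 1 and 13 called genes by edgeR. DESeq2 called 8 (0.183%), among them Plac8 (log2 difference 1.07, adjusted p = 0.00767) and Pdia4 (1.75, 0.0013), both higher, and the early response genes Cd69 and Fos, both lower. Of the 20 marginal zone genes outside the rule 8 could be tested, 0 passed by edgeR, and 7 had a positive difference (median 1.19, against 0.01 over all genes), with Pdia4, a protein disulfide isomerase, at 1.73 ± 0.25 (edgeR adjusted p = 0.168), Fcrl5 at 1.92 ± 0.36 (0.302), Plac8 at 1.08 ± 0.21 (0.302) and S1pr3 at 1.51 ± 0.47 (0.522). Mzb1, an endoplasmic reticulum protein of innate-like B cells, was at 291, 1180 and 1105 CPM against 242, 234 and 473 CPM in follicular-like cells. Without Eµ-PRMT5 spleen 1, 8 of 9 marginal zone genes had a positive difference (median 1.20) and 0 passed. Hes1 stood at 1.87 ± 0.31 (edgeR adjusted p = 0.283).

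Of the 14 B-1 and CLL-like genes 8 could be tested, 0 passed by edgeR, and 8 had a positive difference (median 1.07), with Ctla4, an inhibitory receptor, at 1.79 ± 0.46 and Zbtb32 at 1.44 ± 0.38, neither passing. Of 12 follicular genes 10 had a negative difference (median -0.997). Among them Ighd was at 128, 104.8 and 19.6 CPM against 212, 236 and 246.5 CPM, and Satb1 at 239, 15.5 and 3.27 CPM against 318, 211 and 177.5 CPM. Of 10 immediate early genes 9 had a negative difference (median -0.83). Over all genes 33.7% had the same direction in these 3 libraries.

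Against Cd5-positive B cells, 1 of 6549 genes passed (0.0153%) in 5 spleens (Eµ-PRMT5 3 and 5, Eµ-TCL1 2, Eµ-PRMT5/TCL1 1 and 4), and 318 had an unadjusted p under 0.05 (4.86%). A same direction in all 5 spleens was seen for 7.31% of genes. That gene was S100a6, a calcium-binding protein of B-1 and CLL-like cells. It was at 213.5, 601, 4179, 1073 and 94.4 CPM in the Cr2+ Cd5- Fcer2a- cells and at 518, 1202, 5278, 1566 and 170 CPM in the Cd5-positive cells (log2 difference -0.71 ± 0.10 SE, edgeR adjusted p = 0.00286, lower in 5 of 5). The difference ran the same way in each spleen, and the call was lost without Eµ-PRMT5 spleen 5 (edgeR adjusted p = 0.150). Over the 5 fits that left out a library the log2 difference of S100a6 ran from -0.86 to -0.61. Anxa2 differed by -0.67 ± 0.13 (adjusted p = 0.0924) and Ighm by 0.31 ± 0.08 (adjusted p = 0.541), both by edgeR. Of 13 marginal zone genes tested, 7 had a positive and 6 a negative difference (median 0.01, against 0.00 over all genes), and of 12 B-1 and CLL-like genes 4 and 8 (median -0.09).

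Within the Cr2+ Cd5- Fcer2a- cells, Eµ-PRMT5/TCL1 spleens (1 and 4) were compared with Eµ-PRMT5 spleens (1, 3 and 5). By edgeR 0 of 6057 genes passed (0% called), 412 had an unadjusted p under 0.05 (6.8%), and 21.8% of genes did not overlap between the groups. The count of 0 was not stable, as 64 of 5971 genes (1.07%) passed by edgeR without Eµ-PRMT5 spleen 5. DESeq2 called 14 (0.231%). Among them were the immunoglobulin V genes Ighv8-2, at a log2 difference of 24.7, and Ighv2-2, Igkv12-98 and Igkv6-20, at -25.1, -25.3 and -7.32. Ighv8-2 led the Cd5-positive cells of Eµ-PRMT5/TCL1 spleen 1 and of no other spleen. Also called were Pclaf, a replication factor, and Top2a, both higher in Eµ-PRMT5/TCL1. Gadd45b, Nr4a1 and Dusp1, genes of acute stimulation, were lower there. Top2a, a topoisomerase of dividing cells, was at 114 and 303 CPM against 0, 3.88 and 19.6 CPM (log2 difference 4.47 ± 0.75, edgeR adjusted p = 0.171). The 7 cell cycle genes tested had positive differences (median 2.69, against -0.02 over all genes) and the 10 immediate early genes negative ones (median -1.19). Among the other gated B cells, Mki67 was also higher in these Eµ-PRMT5/TCL1 spleens than in these Eµ-PRMT5 spleens, by the values given above. For Mki67 this direction was thus not particular to the selected cells. Of 12 follicular genes 0 passed by edgeR, 10 had a negative difference and 3 an unadjusted p under 0.05 (median -0.97). Of the 10 myeloid markers 3 could be tested and 0 passed, with S100a8 at -5.06 (edgeR adjusted p = 0.674). S100a8 had 1 UMI in the Eµ-PRMT5/TCL1 cells against 57 in the Eµ-PRMT5 cells, of which 50 lay in 1 cell of Eµ-PRMT5 spleen 1. Without Eµ-PRMT5 spleen 1, 1 of 5863 genes passed by edgeR (Gm30211, lower, adjusted p = 0.0127, named after its value was seen), the cell cycle genes had a median of 2.11, the immediate early genes -1.12, the follicular genes -0.29 (5 of 8 negative) and the B-1 and CLL-like genes 0.09. Hes1 differed by -2.94 ± 0.78 (edgeR adjusted p = 0.543), and the 13 B-1 and CLL-like genes had a median of 0.59. Fewer cells of a kind and less RNA per cell cannot be told apart in such sums. Eµ-TCL1 spleens and the nodes of both genotypes had too few libraries with 20 such cells for a comparison of genes.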

How the data were processed

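UMI counts per gene and barcode, not normalized, were deposited by the authors as unfiltered matrices made with Cell Ranger (10x Genomics 3′ v2 chemistry). The submitters' processing notes name Cell Ranger 2.0.1, Seurat 2.2.1 and GRCm38, whereas the matrix headers name Cell Ranger 3.1.0. Groups, tissues and mice were taken from sample titles, libraries of 1 group come from separate mice, and 7 mice pair a node with a spleen. The cells and the gene lists were chosen with earlier results of these data known.

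Barcodes were selected by the rule on UMIs as given in the results, because no cell list from the authors was used. Follicular-like cells had Fcer2a and no Cd5, and Cd5-positive cells had at least 1 Cd5 UMI. T cells had at least 2 UMIs of Cd3d, Cd3e and Cd3g and none of Cd79a and Cd79b. Shares were compared over libraries by exact two-sided permutation tests in Python 3.11.15 with scipy 1.17.1, after thinning each cell to 1500 UMIs, with the full-depth share beside it. Wilson and Poisson intervals (95%) and limits for a count of 0 (3 counts) cover counting error only. UMIs were summed per library and class where both classes had at least 20 cells, and tested with edgeR 4.0.16 (quasi-likelihood, TMM, filterByExpr) in R 4.3.3, with the library as a block between classes and none between genotypes, leaving out the genes of the rule. DESeq2 1.42.0 was an alternative. Genes were called at an adjusted p under 0.05 (Benjamini-Hochberg over all genes tested). Named genes are up to 12 in each direction, with a CPM of at least 20 in the higher class and the same direction in 80% of libraries, plus genes of fixed lists. The steps were tested on simulated data.

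The automatic threshold of Scrublet (scanpy 1.11.5) marked under 0.5% in most libraries and was not used. The expected number of highest scores (0.8% per 1000 barcodes) was removed as an alternative. Pairs of libraries shared 1 to 86 barcodes, 0.402 to 1.82 times the number given by chance. Other alternatives were no filter on low counts, cells matched on UMIs, other denominators and markers, light chain V genes, and leaving out each library. V gene sequences came from the GRCm38 genome.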

Additional observations from a re-analysis of the deposited data

Results flagged for a closer look

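The 5 values given here stood far from the rest of their group of 4 or 5 libraries, by the gap to the nearest library over the range of the group. Among the 28 group measures looked at in this way, chance alone would mark about 1 in 20 if their values were continuous. Where the other libraries of a group are all tied, any differing value is marked whatever its size, and that rate does not hold.

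Eµ-PRMT5 spleen 1 had a thinned share of Cr2+ Cd5- Fcer2a- cells of 0.803% of gated B cells, and the other Eµ-PRMT5 spleens lay between 0% and 0.229%. It is also the library with diverse V genes in these cells. Eµ-TCL1 spleen 2 had 0.898% of kept barcodes under the rule, against 0.0699% to 0.126% in the other Eµ-TCL1 spleens, with 62 cells that each entered through Cd9 and had no Cd1d1 UMI. Eµ-TCL1 spleen 3 had the leading Ighv gene in 33.3% of 6 called cells, against 100% in the other Eµ-TCL1 spleens. Those other spleens are tied, so the mark does not show how unusual this share is.

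Eµ-PRMT5/TCL1 lymph node 2 had a thinned share of 0.140%, which was 4 cells, against 0% in the other 3 nodes of its group. Those nodes are tied as well, so this mark does not show how unusual the share is. Eµ-PRMT5/TCL1 lymph node 1 had a median of 10730.5 UMIs in gated B cells, against 4481.5 to 4924 in the others, and held 3 Cr2+ Cd5- Fcer2a- cells.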

How the results depend on the processing

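Of 131 recomputed values that answer a comparison, 99 kept their direction and stayed on the same side of the threshold or within 1.5 times the count, 21 counts moved and 11 differences turned direction. Of 139 recomputed values of single genes 100 kept their call and 39 lost it. Causes were not tested. Depth limits the shares, since 45 cells met the rule after thinning. The share difference of Eµ-PRMT5/TCL1 from Eµ-TCL1 spleens (0.0503 points) turned to -0.162 at full depth, -0.00413 over all kept barcodes and -0.196 with Cd9 required. In nodes (0.00411 points) it turned to -0.139 at full depth and -0.109 with Cd9 required. None of these passed a test.

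Leaving out 1 library moved the share differences between 0.00657 and 0.207 points (Eµ-PRMT5 against Eµ-TCL1), 0.00685 and 0.0839 (Eµ-PRMT5/TCL1 against Eµ-TCL1), -0.157 and 0.0437 (Eµ-PRMT5/TCL1 against Eµ-PRMT5, turned without Eµ-PRMT5 spleen 1), -0.0309 and 0.0350 (nodes, turned without Eµ-PRMT5/TCL1 node 2, and -0.0114 without Eµ-TCL1 node 1 or 2), and -0.0714 and -0.0238 (node against spleen). The difference in the leading Ighv gene ran from -1.56 to 9.95 points against other gated B cells and from -0.929 to 91.4 against follicular-like cells, negative in both without Eµ-PRMT5 spleen 5. Counts of called genes ran from 16 to 25 against other gated B cells, 1 to 13 against follicular-like cells (13 without Eµ-PRMT5 spleen 5), 0 to 3 against Cd5-positive cells (0 without Eµ-PRMT5 spleen 5) and 0 to 64 between genotypes (64 without Eµ-PRMT5 spleen 5).

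With no filter on low counts 150, 139, 79 and 147 genes were called in these 4 comparisons. DESeq2 called 8 against follicular-like cells and 14 between genotypes. With cells matched on UMIs, 1 was called against other gated B cells and 3 against Cd5-positive cells (S100a6, Myc and Hspa1a).

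Without the replicate block that ties both classes of a library, 0 genes were called against other gated B cells (108 at an unadjusted p under 0.05) and 0 against Cd5-positive cells (34), and the share difference of node and spleen without pairing had a permutation p of 0.225. Same-numbered mice of different genotypes share only a number, with correlations of their deviations from -0.224 to 0.342. With that number as a replicate block the share differences were 0.207, 0.0503, -0.157 and 0.0158 points and none was called. No paired analysis was possible because too few numbers were shared for genes between genotypes.

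At least 50 cells a class left too few libraries, and genes of lymph node cells and of Eµ-TCL1 spleens could not be compared between groups (under 2 libraries with 20 cells).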
